A study of Homo sapiens with 39 samples.

Results

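The long cytoskeletal linker mRNAs are 9 transcripts whose proteins tie actin filaments to one another, to the membrane or to intermediate filaments: FLNA, PLEC, MYH9, TLN1, ACTN1, ACTN4, SPTAN1, AHNAK and VCL. They were taken by gene symbol, and all 9 were found among the 21530 symbols of the polysome gradient table and the 26334 symbols of the RNA immunoprecipitation tables. The set was selected on measured values, because PLEC and FLNA were lower in U2AF1 precipitate than in cytosolic RNA, so that comparison is described here without a test. Its other members were added as genes of the same kind.

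Filamin A, encoded by FLNA, crosslinks actin filaments and anchors them to membrane receptors. Plectin (PLEC) links intermediate filaments to actin and to hemidesmosomes, the rivets that hold basal epithelial cells to the basement membrane. MYH9 encodes the heavy chain of non-muscle myosin IIA, the motor that contracts actin bundles. Talin (TLN1) and vinculin (VCL) couple integrins to actin at focal adhesions, the alpha-actinins ACTN1 and ACTN4 crosslink actin, alpha-II spectrin (SPTAN1) builds the membrane skeleton, and AHNAK is a giant scaffold protein under the plasma membrane. U2AF1 is the small subunit of the factor that reads the AG at the end of an intron, and S34F is a recurrent cancer mutation in one of its zinc fingers. The study asked about a role of U2AF1 in translation, outside splicing.

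RNA immunoprecipitation and polysome gradients were made in HBEC, a human bronchial epithelial cell line, in 3 versions: a line labelled S34F, a line labelled Frame Shift (FS) and a line labelled WT. The immunoprecipitation set held 1 library per line of U2AF1 precipitate (IP), of control immunoglobulin precipitate (IgG) and of cytosolic RNA (Cytosol), 9 in all. The gradient set held 8 fractions per line, 24 libraries in all: monosomes, fractions with 2, 3, 4, 5, 6 and 7 ribosomes per mRNA, and a pooled fraction with 8 to 10. PAR-CLIP, in which crosslinked contacts of a protein show as T-to-C changes in the reads, used Flp-In-293, a derivative of the embryonic kidney line HEK 293 carrying FLAG-HA tagged U2AF1, either S34F or WT. It gave 3 deposited cluster lists: S34F U2AF1 in cytoplasm, WT U2AF1 in cytoplasm and WT U2AF1 in chromatin. Each list pools 2 replicates. The labels do not say whether a line is 1 clone, which allele the FS line carries, or whether libraries of a line came from separate cultures. The only replicates are the 3 lines. The p-values therefore measure the spread left between these samples once each line's own level is fitted, with genotype differences in the response included.

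Library totals ran from 2582141 to 29769968 counts in the immunoprecipitation set and from 2440145 to 13367574 in the gradients. The basal airway markers KRT5 (6819 to 23981 CPM, which are counts scaled to a common library total) and TP63 (113 to 216 CPM) were present in every immunoprecipitation library, whereas KRT14 had a median of 0.0135 CPM there and of 553 CPM in the gradients. KRT17 ranged from 11.9 to 19140 CPM over the 9 immunoprecipitation libraries, and EPCAM was at 0 in 4 of them. How reads shared between related keratin genes were counted is not given in the sources used here. Summed levels of 3 endothelial markers reached at most 10.1 CPM and those of 4 fibroblast markers 40.6 CPM in the immunoprecipitation set. The 3 leukocyte markers summed to 44.9 to 167 CPM there, nearly all of it CD68, with PTPRC at most at 0.0056 CPM. The 5 smooth muscle markers summed to 19.4 to 54.0 CPM, with DES at 0 in all 9 libraries.

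U2AF1 contacts differed widely between these mRNAs. ACTN4 carried the most clusters in each list, with 7 in S34F cytoplasm, 13 in WT cytoplasm and 39 in WT chromatin. SPTAN1 carried 29, VCL 18, MYH9 17, TLN1 11, AHNAK 10 and ACTN1 3 in WT chromatin. The lists used here hold no cluster named FLNA or PLEC, the members on which the set was chosen, and a count of 0 allows up to 3 clusters. Clusters at the positions of these genes but without their names were not looked for. RNA levels of Flp-In-293 cells were not measured in the files used here, so the counts are not set against abundance.

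In all, the 9 mRNAs held 10 of the 28828 clusters in S34F cytoplasm, which is 0.0347% (95% exact Clopper-Pearson interval 0.0166 to 0.0638%, counting error only). They held 24 of the 26613 clusters in WT cytoplasm, 0.0902% (0.0578 to 0.134%), and 127 of the 92895 clusters in WT chromatin, 0.137% (0.114 to 0.163%). There is 1 list per condition, so the difference between S34F and WT cytoplasm has no replicate check. Of the 127 chromatin clusters, 69 were annotated as coding and 29 as intron, and 21 ran from an intron into a coding exon. That last class made up 16.5% of the members' chromatin clusters and 16.2% of all clusters in the list. In cytoplasm it counted 0 of 10 clusters with S34F and 1 of 24 with WT U2AF1, and 2.90% and 2.37% of all clusters in those lists.

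**Figure D1:**
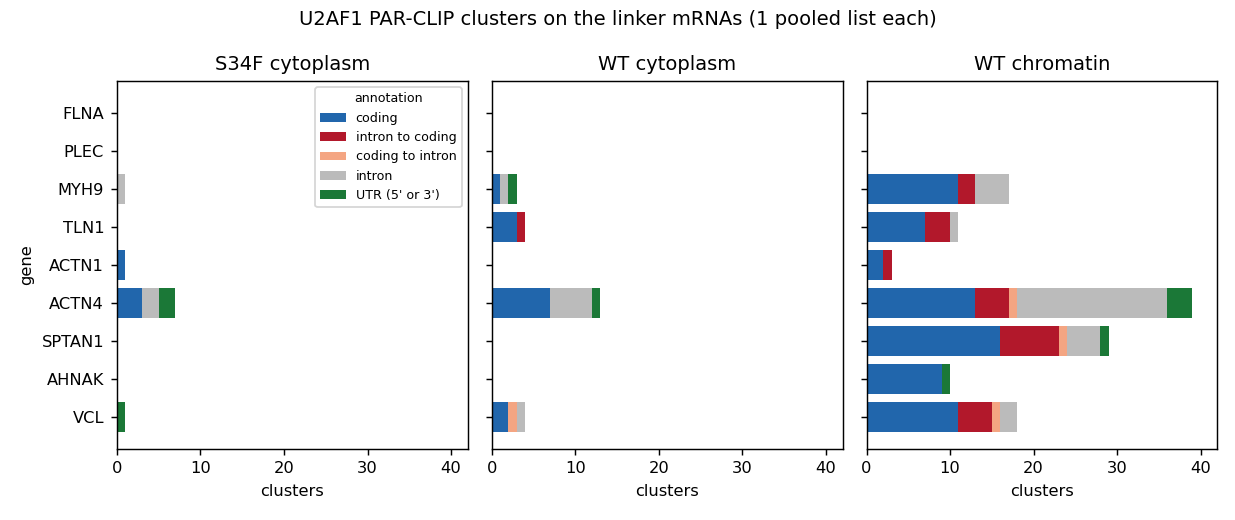
Number of U2AF1 PAR-CLIP clusters on each linker mRNA (horizontal axis) in the 3 cluster lists, coloured by the annotation in the lists. ACTN4 has the longest bar in each list, with 7, 13 and 39 clusters, and FLNA and PLEC have none.

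The clusters that cross from an intron into an exon can hold the end of the intron that U2AF1 is known to read. Only those with a CAG or TAG after a C- or T-rich lead could be printed, so that triplet is present in each by choice. The best-covered of these for each gene in WT chromatin is printed 5′ to 3′ as the list gives it. The CAG or TAG at the presumed intron end is in capitals. It was found as the first such triplet after 6 bases of which at least 4 were C or T, on the transcript strand alone.
MYH9: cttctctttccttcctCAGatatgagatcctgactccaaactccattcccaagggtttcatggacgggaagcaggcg
TLN1: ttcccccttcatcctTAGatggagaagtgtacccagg
SPTAN1: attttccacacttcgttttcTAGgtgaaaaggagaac
ACTN4: ttcacttgCAGacatcgtgaa
VCL: ctcttgTAGgttggaaaagaga
ACTN1: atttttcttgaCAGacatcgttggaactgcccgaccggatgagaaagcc

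The MYH9 cluster at chr22:36701091-36701167 on the minus strand held 233 reads, with a T-to-C fraction of 0.978. The TLN1 cluster at chr9:35713277-35713313 on the minus strand held 175 reads with a fraction of 0.954. The SPTAN1 cluster at chr9:131387359-131387395 on the plus strand held 103 reads with a fraction of 0.75. The list's median was 29 reads per cluster, and these were picked as the best-covered, so their place above it follows in part from that choice. ACTN4 at chr19:39200886-39200906 (plus strand) had 59 reads and VCL at chr10:75802832-75802853 (plus strand) had 36. ACTN1 at chr14:69369245-69369293 (minus strand) had 22 reads. Positions are those of the deposited lists, whose genome build is not given in the sources used here. The triplet with its C- or T-rich lead was present in 15 of the members' 21 clusters of this class, 9 with CAG and 6 with TAG, and in 68.5% of all clusters of this class in the list. In coding clusters of the list it was present in 25.1%, and in 12 of the members' 69.

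Recurrence of the members' sites between lists is given as counts only. The overlap over all clusters of the lists was not computed, so nothing particular to the members is read from it. Of the members' 10 clusters in S34F cytoplasm 1 overlapped a cluster in WT cytoplasm by at least 1 base, which is 10.0% of the S34F clusters and 4.17% of the 24 WT clusters. It lies in a coding exon of ACTN4 and is shown because it is the single place on these mRNAs listed with both proteins, with the 27 shared bases in capitals.
ACTN4 with S34F: CGGCACAGACCAGAGCTGATTGAGTAT
ACTN4 with WT: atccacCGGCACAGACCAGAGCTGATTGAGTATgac

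The S34F cluster at chr19:39198794-39198820 held 12 reads with a T-to-C fraction of 0.909. The WT cluster at chr19:39198788-39198823 held 49 reads with a fraction of 0.25. Of the WT cytoplasm clusters 6 of 24 (25.0%) overlapped a WT chromatin cluster, which touched 7 of the 127 chromatin clusters (5.51%). These were 5 clusters of ACTN4 and 1 of MYH9. The MYH9 contact in cytoplasm held 7 reads and lies inside the intron-to-exon cluster printed above, on its exon side.
MYH9 in cytoplasm: AGATCCTGACTCCAAACTCCATTCCC
The best-covered coding cluster of TLN1 in WT cytoplasm, at chr9:35725566-35725598, held 30 reads, and that of VCL, at chr10:75849830-75849860, held 14 reads. Both are printed as examples of exon contacts without an intron end.
TLN1 in cytoplasm: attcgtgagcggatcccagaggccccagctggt
VCL in cytoplasm: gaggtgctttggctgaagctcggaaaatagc

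Per length, the linker mRNAs covered a wide range of abundance in HBEC cytosol. On the deposited RPKM scale (reads scaled to transcript length and library size), Cytosol levels were 198 ± 1.4 for FLNA, 154 ± 13.5 for MYH9, 97.6 ± 23.6 for ACTN1 and 73.4 ± 17.0 for PLEC (SD, n = 3 lines). They were 53.0 ± 4.9 for ACTN4, 34.4 ± 6.9 for AHNAK, 28.3 ± 4.9 for TLN1, 16.2 ± 0.89 for SPTAN1 and 3.42 ± 0.94 for VCL. Among neighbours in this order, the ranges over lines overlapped for ACTN1 with PLEC and for AHNAK with TLN1. By counts, which also grow with length, FLNA ranked 10th and VCL 2908th among all symbols.

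U2AF1 precipitate held less of most of these mRNAs than Cytosol in each line. FLNA had 3908, 3390 and 3044 CPM in IP from S34F, FS and WT, against 5640, 5342 and 5324 CPM in Cytosol of the same lines. PLEC had 2431, 2109 and 2684 CPM in IP, against 3280, 3584 and 4790 CPM in Cytosol. For both, the IP and Cytosol libraries did not overlap. The fitted IP against Cytosol difference was -0.70 ± 0.12 log2 for FLNA and -0.71 ± 0.13 for PLEC (edgeR, SE, 3 lines). TLN1 stood at -0.81 ± 0.18, ACTN4 at -0.78 ± 0.19 and MYH9 at -0.61 ± 0.15. SPTAN1 stood at -0.56, ACTN1 at -0.52, AHNAK at -0.22 and VCL at -0.10, so the difference was below 0 for all 9. VCL turned to 0.07 without the FS line and 0.18 without the WT line. The members' median was -0.61, beside -0.07 over all 11612 genes tested, of which 0.0431% were called lower. The comparison chose the set, so nothing is read from these counts.

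Line by line, 8 of the 9 were lower in IP than in Cytosol in all 3 lines. The share of all genes that were lower in all 3 lines, or without overlap, was not computed. By the fitted difference the 9 stood at percentiles 16.0 (TLN1) to 48.2 (VCL) of all genes tested. VCL was the exception, with 70.1 CPM in IP and 42.8 CPM in Cytosol of the S34F line, but 52.3 against 68.6 in FS and 46.4 against 69.2 in WT. MYH9 had 2781, 2440 and 2348 CPM in IP from S34F, FS and WT, and 3480, 3865 and 3875 CPM in Cytosol, with no overlap. TLN1 had 329, 490 and 514 CPM in IP, and 661, 737 and 880 CPM in Cytosol. AHNAK had 1902, 1764 and 1833 CPM in IP, and 1994, 1844 and 2572 CPM in Cytosol, so that its groups overlapped.

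**Figure D2:**
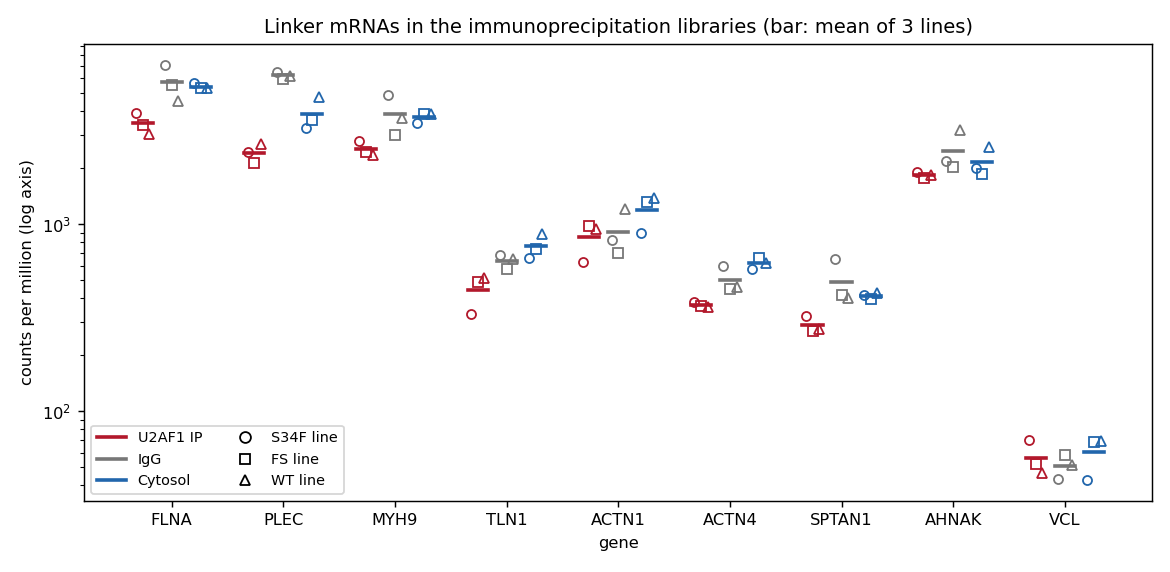
CPM (log axis) of each linker mRNA in the 9 immunoprecipitation libraries, with U2AF1 IP left of IgG and Cytosol. Points are single libraries, shaped by line, and bars are means of 3 lines. PLEC lies between 2109 and 2684 in IP, below all IgG libraries (5996 to 6497) and all Cytosol libraries (3280 to 4790).

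Against the control precipitate, PLEC stood lowest of the 9. It had 2431, 2109 and 2684 CPM in IP, against 6497, 5996 and 6179 CPM in IgG from S34F, FS and WT. The fitted difference of PLEC was -1.55 ± 0.13 log2 and that of FLNA -0.89 ± 0.12, given without a test because the IP libraries that chose them are used again. The other 7 also share those IP libraries with the choosing comparison, so their tests are not fully independent of it. Of these 7, MYH9 and SPTAN1 were lower in IP by edgeR's quasi-likelihood test with Benjamini-Hochberg adjustment. MYH9 fell by 0.77 ± 0.15 log2 (adjusted p = 0.0171) and SPTAN1 fell by 0.92 ± 0.20 (adjusted p = 0.0311), each lower in 3 of 3 lines. SPTAN1 had 323, 268 and 274 CPM in IP, and 653, 418 and 402 CPM in IgG, with no overlap. MYH9 had 2985 to 4872 CPM in IgG, above all its IP libraries. Here, too, the share of all genes lower in all 3 lines, or without overlap, was not computed.

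The remaining 5 did not pass. TLN1 stood at -0.72 (adjusted p = 0.0731), AHNAK at -0.56 (0.0965), ACTN4 at -0.61 (0.155), ACTN1 at -0.28 (0.574) and VCL at -0.01 (0.997). ACTN1 was higher in IP than in IgG in the FS line, with 972 against 703 CPM, and lower in the other two. Over all genes 1.12% were called lower in IP than in IgG, and the median difference was 0.03, beside -0.72 over the members. DESeq2 called 5 of the 7 lower. Without TMM scaling the median of all genes shifted by 0.18, no member was called, and VCL stood at 0.16. All genes called then split into 43 higher and 75 lower, where TMM scaling gave 26 higher and 130 lower. The call on SPTAN1 was lost without any 1 line (adjusted p = 0.119 without FS, 0.128 without S34F and 0.150 without WT), and that on MYH9 without WT (0.169). Without the replicate block 0 of the 7 were called (adjusted p = 0.204 for MYH9 and 0.180 for SPTAN1).

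The deposited RPKM values use a larger library total, of which the gene counts made up 22.2 to 24.5% in IP, 17.6 to 25.7% in IgG and 29.96 to 31.7% in Cytosol. On that scale 8 members were lower in IP than in Cytosol in all 3 lines, as by CPM. Against IgG, however, 4 members were lower in all 3 lines (FLNA, PLEC, MYH9 and SPTAN1), where CPM gave 7, and VCL was higher in all 3. On the RPKM scale 5 members were lower in IgG than in Cytosol in all 3 lines and none was higher in all 3. For these counts by line, too, the shares of all genes were not computed.

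The control precipitate itself held much PLEC. IgG had 6497, 5996 and 6179 CPM of PLEC from S34F, FS and WT, against 3280, 3584 and 4790 CPM in Cytosol, a fitted difference of 0.84 ± 0.13 log2. On the RPKM scale the same difference was 0.76, 0.01 and -0.48 log2 in S34F, FS and WT. FLNA stood at 0.19 ± 0.12 log2. Of the other 7, which share the Cytosol libraries with the choosing comparison, none passed edgeR's test. At an unadjusted p under 0.05 there was 1, AHNAK at 0.34 ± 0.15 (adjusted p = 0.645), and DESeq2 called 0. Over all genes 0.663% were called higher in IgG than in Cytosol.

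Related genes gave the following counts in the precipitates. Among 15 tested relatives of the linkers 2 were lower in IP than in IgG and none higher, with a list median of -0.79 log2. Among them AHNAK2, a scaffold related to AHNAK, fell by 1.23 ± 0.16 (931 CPM in IP, 2009 CPM in IgG, adjusted p = 0.0011). Of 22 adhesion plaque partners 1 was lower, the laminin-binding integrin subunit ITGA3, which fell by 1.44 ± 0.19 (adjusted p = 0.0011), and the list median was -0.09. Of 21 tested mRNAs of actin, myosin light chains and short actin regulators none was called by edgeR or DESeq2, with 3 at an unadjusted p under 0.05 and a list median of -0.02. Of 25 tested long mRNAs of other function 2 were lower, the endocytic receptor LRP1 and the RNA polymerase II subunit POLR2A, which fell by 1.65 ± 0.36 (adjusted p = 0.0299) and 1.19 ± 0.25 (adjusted p = 0.0256). Their list median was -0.41. IgG held more than Cytosol of ITGA3 (1.04 ± 0.19, adjusted p = 0.0111) and of the receptor NOTCH2 (1.61 ± 0.35, adjusted p = 0.0454), the 1 gene called in each of their lists. Between IP and Cytosol no gene of the 4 lists was called by edgeR, and DESeq2 called 2, both among the relatives. At an unadjusted p under 0.05 there were 5, 5, 4 and 9 in the lists as ordered above.

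The gradients, which the comparison that chose the set did not use, placed most linker mRNAs towards the heavy end. Earlier results of these data were known when the members were chosen. The heaviest fraction in the set, with 8 to 10 ribosomes, held the highest level of 7 members in S34F, of 6 in FS and of all 9 in WT. No fraction above 10 ribosomes is in the set, so levels beyond it are not known. The share of all genes with their highest level in that fraction was not computed. PLEC in WT had 389 CPM in monosomes, 457, 415, 383, 472, 744 and 846 CPM in the fractions with 2 to 7 ribosomes, and 1866 CPM at 8 to 10. Its level was thus flat up to 5 ribosomes and climbed from there. FLNA in WT had 415 CPM in monosomes, 631, 739, 860, 1165, 1544 and 1075 CPM with 2 to 7 ribosomes, and 1704 CPM at 8 to 10. In S34F the FLNA maximum lay in the fraction with 4 ribosomes, at 2869 CPM, beside 1799 CPM at 8 to 10 and 800 CPM in monosomes.

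**Figure D3:**
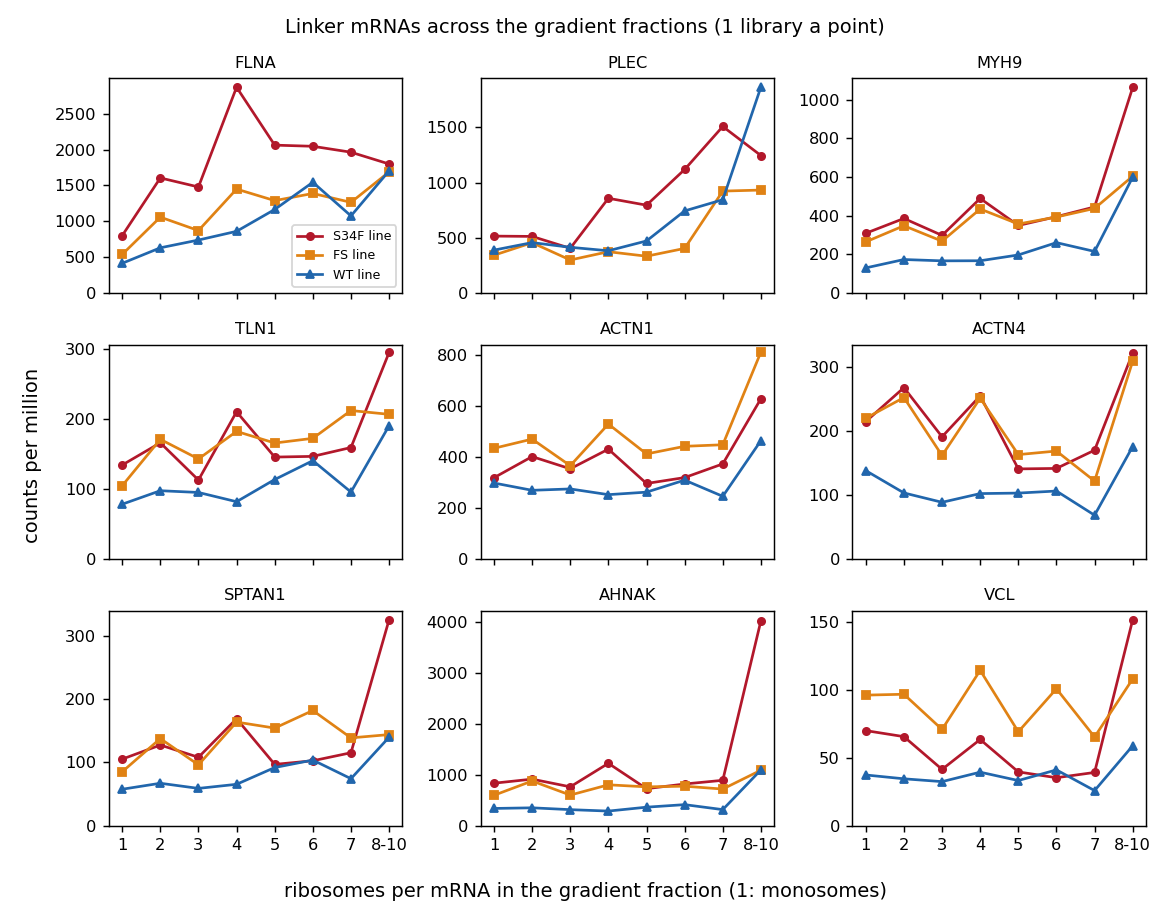
CPM of each linker mRNA (vertical axes, from 0) over the 8 gradient fractions (horizontal axis, ribosomes per mRNA) in the S34F, FS and WT lines, with 1 library per point. In WT all 9 end at their highest level, such as PLEC at 1866, and AHNAK in S34F steps to 4018 in the last fraction.

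Against monosomes, 8 of the 9 rose in the 8 to 10 fraction, and over all 15945 genes 28.3% were called higher and 21.6% lower. PLEC had 1246, 933 and 1866 CPM at 8 to 10 ribosomes in S34F, FS and WT, against 516, 343 and 389 CPM in monosomes, a rise of 1.89 ± 0.37 log2 (adjusted p = 3.3e-04). MYH9 had 1063, 604 and 599 CPM, against 309, 265 and 130 CPM, a rise of 1.89 ± 0.30 (adjusted p = 5.6e-05). FLNA had 1799, 1688 and 1704 CPM, against 800, 538 and 415 CPM, a rise of 1.83 ± 0.35 (adjusted p = 2.4e-04). In each of these the lowest heavy library lay above the highest monosome library. The share of all genes without such overlap was not computed. The giant scaffold AHNAK had 4018, 1090 and 1097 CPM at 8 to 10 ribosomes, against 836, 599 and 341 CPM in monosomes. Its rise was 1.80 ± 0.32 log2 (adjusted p = 1.4e-04), and 1.61 without the S34F line (adjusted p = 0.0039).

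The other linkers moved less. SPTAN1 rose by 1.39 ± 0.30 log2 (adjusted p = 7.1e-04) and TLN1 by 1.27 ± 0.28 (adjusted p = 8.7e-04). ACTN1 rose by 0.97 ± 0.28 (adjusted p = 0.0060) and VCL by 0.81 ± 0.28 (adjusted p = 0.0190). ACTN4 stood at 0.60 ± 0.29 and did not pass (adjusted p = 0.0866), although it was higher in the heavy fraction in 3 of 3 lines, with 323, 310 and 176 CPM against 215, 221 and 139 CPM. The members' median was 1.39, beside 0.08 over all genes, whose median moved by -0.12 without TMM scaling. ACTN4 passed without the low-count filter (0.84, adjusted p = 0.0215). The call on VCL was lost without the S34F line (adjusted p = 0.103), without the WT line (0.0939) and without the replicate block (0.196), and that on ACTN1 without the FS line (0.0656).

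The 3 smallest rises belonged to the 3 shortest transcripts. ACTN4, with 3614 bases in the deposited tables, ACTN1 with 3791 and VCL with 5486 stood at 0.60 to 0.97 log2, whereas the 6 transcripts of 7554 to 19265 bases stood at 1.27 to 1.89. Over all genes the medians by length ran otherwise, and a role of length among the members was not tested. The 1094 transcripts above 8000 bases had a median of -0.12 log2, with 27.6% called higher, and the 3694 transcripts up to 2000 bases had a median of 0.48, with 35.7% called higher. PLEC, at 16463 bases, and MYH9, at 7554, both stood at 1.89.

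**Figure D4:**
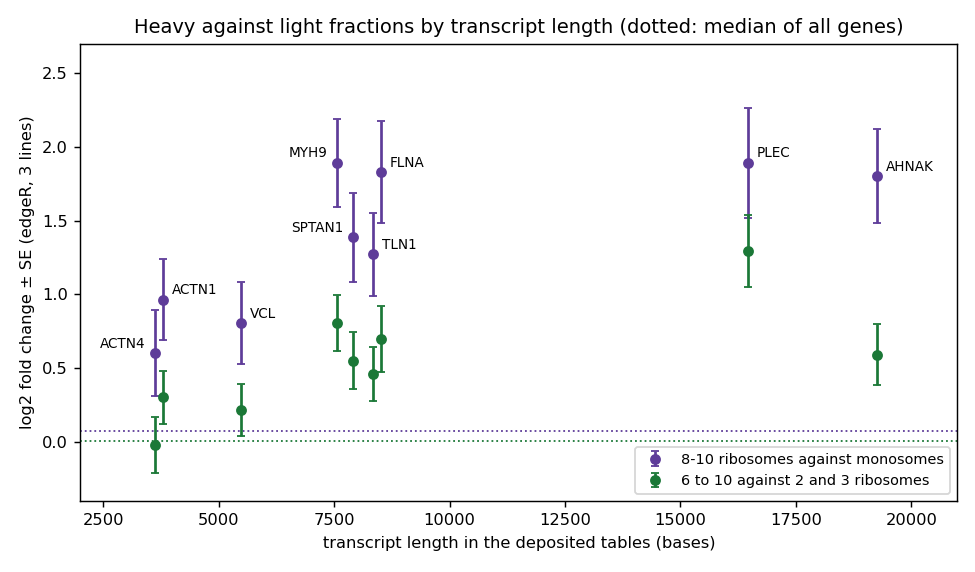
Fitted log2 fold change with its standard error (vertical axis) of each linker mRNA against transcript length in bases (horizontal axis), for 8 to 10 ribosomes against monosomes and for 6 to 10 against 2 and 3 ribosomes. ACTN4, ACTN1 and VCL, the shortest, stand at 0.60 to 0.97 in the first contrast, and dotted lines mark the medians of all genes, 0.08 and 0.01.

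Within the polysomes, 6 of the 9 were higher with 6 to 10 ribosomes than with 2 and 3, a contrast in which 22.8% of all genes were called higher and 16.6% lower. PLEC rose by 1.30 ± 0.24 log2 (adjusted p = 2.7e-04), and its levels averaged 1282, 704 and 1055 CPM with 6 to 10 ribosomes in S34F, FS and WT, against 456, 370 and 435 CPM with 2 and 3. MYH9 rose by 0.81 ± 0.19 (adjusted p = 0.0019) and FLNA by 0.70 ± 0.22 (adjusted p = 0.0147). AHNAK rose by 0.59 ± 0.20 (adjusted p = 0.0240), SPTAN1 by 0.55 ± 0.19 (adjusted p = 0.0268) and TLN1 by 0.46 ± 0.18 (adjusted p = 0.0468). ACTN1 at 0.30, VCL at 0.22 and ACTN4 at -0.02 did not pass (adjusted p = 0.186, 0.354 and 0.938). The members' median was 0.55, beside 0.01 over all genes. The fit counts fractions of the same gradient as separate libraries, although deviations of same-line libraries correlated at a median of 0.346. These p-values therefore rest on more than the spread between the 3 lines and may be too small. Line by line, FLNA stood at 0.33, 0.58 and 1.05 log2 in S34F, FS and WT, and AHNAK at 0.78, 0.22 and 0.65. PLEC was the only member still called without the replicate block. Without the FS, S34F or WT line, 3, 3 and 2 members were called. TLN1 and SPTAN1 were lost each time (adjusted p = 0.0643 to 0.259), FLNA without FS (0.0574) or WT (0.231), and AHNAK without S34F (0.177) or WT (0.197).

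Related and unrelated lists also held many genes that rose towards the heavy end. Of 20 relatives of the linkers 12 rose in the 8 to 10 fraction against monosomes and 1 fell, with a list median of 0.97. The largest rises were those of MYH10, the heavy chain of non-muscle myosin IIB (2.39 ± 0.29, adjusted p = 6.4e-06), and of the plakin family member EPPK1 (1.89 ± 0.36, adjusted p = 2.6e-04). The gene that fell was ACTN2, a muscle alpha-actinin close to the counting limit (0.0607 CPM on average at 8 to 10 ribosomes, 1.38 CPM in monosomes). Of 22 adhesion plaque partners 10 rose, led by the integrin subunit ITGB1 (2.13 ± 0.32, adjusted p = 3.3e-05) and CSRP1 (2.00 ± 0.36, adjusted p = 1.7e-04), with a list median of 0.77. Of 22 short actin, light chain and regulator mRNAs 16 rose, led by the Arp2/3 complex subunit ARPC2 (2.15 ± 0.36, adjusted p = 8.8e-05) and the tropomyosin TPM4 (2.08 ± 0.34, adjusted p = 6.8e-05), with a list median of 1.51. Of 25 long mRNAs of other function 17 rose, led by the ubiquitin ligase HUWE1 (1.97 ± 0.30, adjusted p = 4.1e-05) and the nuclear pore protein TPR (1.67 ± 0.35, adjusted p = 5.7e-04), with a list median of 0.89. The linkers' median of 1.39 thus lay within the range of these lists.

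With 6 to 10 against 2 and 3 ribosomes the counts of genes that rose were 7 of 20 relatives, 12 of 22 adhesion partners, 12 of 22 short actin mRNAs and 6 of 25 long mRNAs. The plakin family member EVPL rose by 1.53 ± 0.22 log2 (adjusted p = 1.5e-05) and EPPK1 by 1.34 ± 0.23 (adjusted p = 1.3e-04). VASP, which promotes actin filament growth, rose by 1.34 ± 0.21 (adjusted p = 5.3e-05) and CSRP1 by 1.13 ± 0.24 (adjusted p = 6.4e-04). The myosin light chain MYL12B rose by 1.55 ± 0.21 (adjusted p = 8.9e-06) and the actin-binding profilin PFN1 by 1.51 ± 0.25 (adjusted p = 8.1e-05). HUWE1 rose by 0.90 ± 0.19 (adjusted p = 8.0e-04) and the histone methyltransferase KMT2D by 0.88 ± 0.19 (adjusted p = 9.5e-04). The receptor IGF2R fell by 0.84 ± 0.20 (adjusted p = 0.0019), the only gene of the 4 lists called lower in this contrast.

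The CPM-weighted mean position in the gradient, with 9 for the pooled fraction, was computed for 9501 genes with at least 500 counts per gradient. It is an index of position, since CPM gives each fraction the same total. In WT it was 6.03 for PLEC, 5.81 for MYH9, 5.60 for AHNAK and 5.57 for FLNA, beside a median of 4.76 over all genes, and 99.5% of genes lay below PLEC. PLEC stood at 5.55 in S34F and 5.56 in FS, where the medians over all genes were 4.94 and 4.82. FLNA stood at 4.95 in S34F and 5.23 in FS, so that 50.7%, 75.9% and 91.8% of genes lay below it in S34F, FS and WT. ACTN4 was the lightest of the 9 in S34F (4.69) and WT (4.78) and VCL in FS (4.63). Of the 9, 7 lay above the median of all genes in each of the 3 lines, and ACTN4 and VCL did not. That count was 6 with the pooled fraction weighted 8 or 10, and 5 without that fraction. The share of all genes above the median in all 3 lines was not computed. FLNA and ACTN1 lay close to the median in S34F, with 50.7% and 52.8% of genes below them.

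Mean levels over the gradient were higher in S34F than in WT for all 9, without a replicate check because each line has 1 library per fraction. AHNAK averaged 1275 CPM over 8 fractions in S34F, 780 in FS and 437 in WT. FLNA averaged 1828 CPM in S34F, 1193 in FS and 1017 in WT, and was above WT in 8 of 8 fractions in S34F and in 6 of 8 in FS. MYH9 averaged 467 CPM in S34F, 388 in FS and 239 in WT, above WT in all 8 fractions of both lines. PLEC averaged 871 CPM in S34F, 509 in FS and 697 in WT, and was above WT in 6 of 8 fractions in S34F and in 1 of 8 in FS. VCL averaged 63.3 CPM in S34F, 90.2 in FS and 37.9 in WT. PLEC in FS was the only member of the 9 below WT by this mean. Over the 9501 genes with at least 500 counts per gradient, the median log2 ratio was -0.05 for S34F against WT and 0.08 for FS against WT. The share of those genes with a higher S34F against WT ratio ran from 0.46% for AHNAK to 23.0% for PLEC. For FS against WT it ran from 5.74% for VCL to 78.7% for PLEC. The share of all genes above WT in each fraction was not computed. In the Cytosol libraries, by contrast, S34F lay below WT for 8 of the 9, with AHNAK at 1994 CPM in S34F, 1844 in FS and 2572 in WT, and FLNA was the exception. In these bulk libraries, fewer cells with an mRNA and less of it per cell cannot be told apart.

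The genes whose log2 CPM followed FLNA most closely over the 24 gradient libraries were HOOK2 (Pearson r = 0.919), PHLDB3 (0.908), TNKS1BP1 (0.905), CIC (0.905) and HCFC1 (0.899). Those closest to PLEC were PPP4C (0.921), DDIT4 (0.897), EIF5AL1 (0.894), ORMDL3 (0.894) and MFSD10 (0.893). Neither set includes a linker. The r of FLNA with PLEC was 0.631, and that of FLNA with MYH9 and TLN1 0.738 and 0.718. Against VCL it was 0.16 for FLNA and -0.06 for PLEC. These values are descriptions over libraries that share lines, fractions and depth.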

How the data were processed

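The authors deposited estimated counts per gene symbol for the 24 gradient and 9 immunoprecipitation libraries, per the file headers; 57.5% of gradient values and 26.3% of immunoprecipitation values were not whole. RPKM, which the authors give beside them in the immunoprecipitation tables, served for levels per length. For each PAR-CLIP cluster the authors list a whole-number read count and the T-to-C fraction, from 2 pooled replicates. TopHat is named in the submitters' processing notes, without a version. The counting tool, strand use, cluster caller and build are not given in the sources used here. Gene starts of the tables differ from GRCh38.p14 for all 9 members.

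Of 21603 gradient entries, 28 with gene names turned into dates and 45 repeated symbols were dropped, and of 26453 immunoprecipitation entries 119 repeated symbols. Counts were rounded and tested with edgeR 4.0.16 (limma 3.58.1, R 4.3.3): filterByExpr, TMM, quasi-likelihood test, line as a block, Benjamini-Hochberg adjusted p under 0.05 over 11612 or 15945 genes, with all libraries of an assay in 1 fit. The code was tested on simulated data. The SE given with edgeR values is the absolute log2 difference divided by the square root of the test's F statistic. DESeq2 1.42.0 was an alternative. CPM in the text are counts scaled to the library total, without TMM. TMM factors ran from 0.908 to 1.11 and from 0.722 to 1.40. The 3 lines pair the libraries, since same-line libraries come from the same cell line. The deviations of same-line libraries from the group means correlated at a median of 0.064 in the immunoprecipitations and 0.346 in the gradients. The members, gene lists and tests were chosen with earlier results of these data known. Named are all 9 members, the 2 called genes of each other list with the largest change in each direction, and the 5 genes most like FLNA and PLEC. A gene that this rule names is not reported here.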

Additional observations from a re-analysis of the deposited data

Results flagged for a closer look

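In 4 cases the lines moved in opposite directions by at least 0.25 on the log2 CPM scale, each from 1 library per line and kind, and the difference between lines was not tested. VCL in IP against Cytosol stood at 0.71 in S34F, -0.39 in FS and -0.58 in WT. ACTN1 in IP against IgG stood at -0.40 in S34F, 0.47 in FS and -0.35 in WT. MYH9 in IgG against Cytosol stood at 0.49 in S34F, -0.37 in FS and -0.06 in WT. PLEC in the 8 to 10 fraction against the fraction with 7 ribosomes stood at -0.28 in S34F, 0.01 in FS and 1.14 in WT.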

How the results depend on the processing

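The members' median for IP against Cytosol stayed between -0.67 and -0.51 without 1 line each. Genes called lower numbered 5, against 43 without the low-count filter, 52 by DESeq2, 28 with the 2 groups alone, 0 with no replicate block and 1 to 7 without 1 line. For IP against IgG, 130 genes and 2 members became 281 and 4 without the filter, 441 and 5 by DESeq2, 32 and 0 with no replicate block, 75 and 0 with library totals instead of TMM (chosen after seeing the data), and 15 to 187 and 0 to 2 without 1 line. For IgG against Cytosol, 77 genes became 190 without the filter, 200 by DESeq2 and 62 to 136 without 1 line. For 8 to 10 ribosomes against monosomes, 4519 genes became 2739 with no replicate block, while the 8 members called became 7 with no replicate block and 7 without any 1 line. For 6 to 10 against 2 and 3 ribosomes, 3633 genes and 6 members became 2246 and 1 with no replicate block, 3 members with the fractions compared alone, and 1931 to 2808 genes and 2 to 3 members without 1 line. Signs turned for VCL and ACTN4, neither called in those comparisons. VCL in IP against Cytosol, which was not tested, went to 0.068 without FS and 0.18 without WT. VCL in IP against IgG went to 0.16 without FS, 0.17 without WT and 0.16 without TMM, and in IgG against Cytosol to 0.0039 without WT. ACTN4 with 6 to 10 against 2 and 3 ribosomes went to 0.0057 without the filter, 0.033 without FS and 0.019 without S34F. The cause was not tested. At 10 or more reads, the members' clusters numbered 3 in S34F cytoplasm and 14 in WT cytoplasm. Intervals and limits cover counting error only, and with 1 library per line no difference between lines could be tested.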
